A study of Mus musculus with 6 samples.

Results

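The genes described here encode the enzymes that write, copy, remove and read methylation of cytosine in DNA: Dnmt1, Dnmt3a, Dnmt3b, Uhrf1, Tet1, Tet2, Tet3 and Mbd2. They were chosen by symbol, and all 8 were found among the 44679 genes of the deposited tables. Total RNA had been sequenced from cell pellets of 6 skin tumours of B16F10, an established pigmented mouse melanoma line. Of these, 3 tumours came from mice that received no drug and 3 from mice treated in vivo with vorinostat, an inhibitor of histone deacetylases. The B16F10 line is the only genotype the labels give, and it is shared by both groups. The sources used here give neither host strain and age nor dose and duration. The labels do not say that each tumour came from a separate mouse, so p-values measure only the spread between these 6 samples. The titles carry G numbers whose meaning is not given. Untreated tumours 1 and 2 share G number 1, and vorinostat tumours 1 and 2 share G number 3. Untreated tumour 3 (G number 2) and vorinostat tumour 3 (G number 4) share theirs with no other tumour. The comparison asks whether the RNA of the methylation machinery differed between treated and untreated tumours.

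In mammals, Dnmt3a and Dnmt3b place methyl groups on unmethylated CpG sites. Dnmt1 then copies the pattern after each round of replication, guided to the new strand by Uhrf1, which binds hemimethylated DNA. The Tet enzymes oxidise 5-methylcytosine, which starts its removal, and Mbd2 binds methylated CpG sites and brings in the NuRD complex, a repressor that contains histone deacetylases. Histone deacetylation and DNA methylation are therefore linked layers of gene silencing, and both are altered in many cancers.

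The libraries held between 11.3 M and 28.9 M reads assigned to genes (M, 1000000). Nuclear protein-coding genes took between 10.3% and 46.4% of them. Untreated tumour 3 stood apart: 55.9% of its reads came from the mitochondrial ribosomal RNAs, against 13.3% to 25.3% in the other libraries, and its nuclear protein-coding reads numbered 2.98 M. Vorinostat tumour 3 lay at the far end of the first principal component, at 88.6 against -60.8 to 19.2. The melanocyte markers were present in every tumour, with Mitf between 182 and 230 CPM and Tyr between 114 and 183 CPM, where CPM is the reads of a gene per 1000000 reads of the library after TMM scaling. The leukocyte marker Ptprc ranged from 6.69 CPM in untreated tumour 2 to 28.3 CPM in untreated tumour 3, so leukocyte RNA was present in every tumour. In such bulk samples, fewer cells of a type and less RNA per cell cannot be told apart.

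In short, none of the 8 genes differed between the groups beyond the spread of the tumours. The largest difference was that of Dnmt3a, with a mean of 61.1 ± 4.26 CPM under vorinostat and 91.6 ± 30.1 CPM without it (SD, n = 3 each). In CPM after TMM scaling, the maintenance methyltransferase Dnmt1 stood at nearly the same level in all tumours. Its partner Uhrf1 varied 2.38-fold between tumours. The quasi-likelihood test of edgeR called 0 of the 8 at an adjusted p under 0.05, and 0.0% of the 14776 genes tested. With untreated tumour 2 left out it called 121 genes, again with 0 of the 8. At an unadjusted p under 0.05 edgeR gave 1 of the 8, Dnmt3a, against 6.27% of all genes. Dnmt3a was lower in treated tumours, the direction of 2.92% of all genes, while 0 of the 8 were higher at that p, against 3.36%. DESeq2 called 0 of the 8 against 0.0745% of all genes, and 1 of 8 against 7.75% at an unadjusted p under 0.05. No gene of the 8 had group ranges that were apart, which 12.1% of all genes had. The median log2 fold change of the 8 was -0.05 beside 0.03 for all genes. Log2 fold changes were above 0 for 2 and below 0 for 6 of the 8, where 45.9% of all genes tested were below 0. That split depended on the scale: with limma on log2(TPM + 1) the median over all genes was itself 0.26, and only Dnmt3a was below 0.

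**Figure D1:**
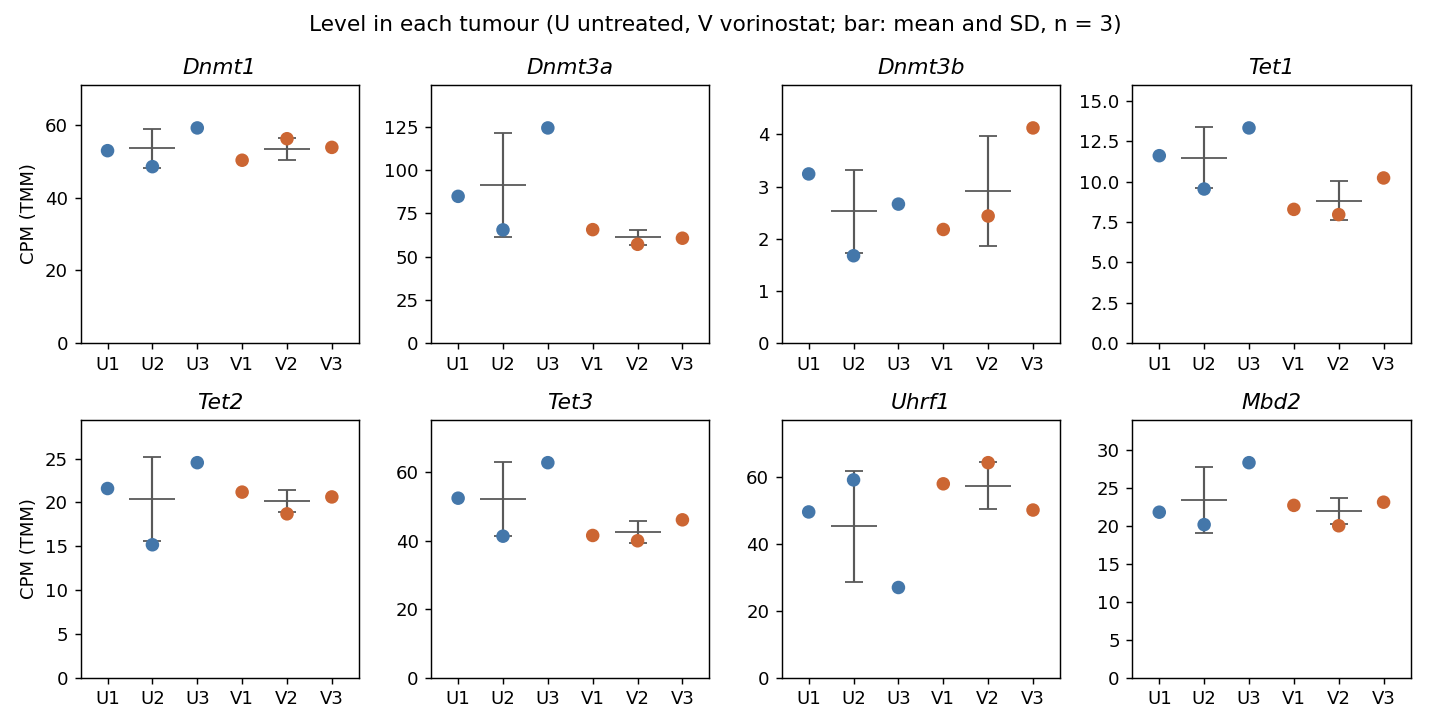
Level of each of the 8 genes in CPM (TMM-scaled) in untreated tumours U1 to U3 and vorinostat tumours V1 to V3, with the mean and SD of each group of 3. Untreated tumour 3 has the highest level of 6 genes and the lowest of Uhrf1, and no panel shows groups that are apart.

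Among the writers, Dnmt3a (ENSMUSG00000020661, chromosome 12 from 3806007 to 3914443, GRCm38, plus strand) was the most abundant in reads. Its level was 84.9, 65.5 and 124.5 CPM in untreated tumours 1, 2 and 3, and 65.6, 57.1 and 60.6 CPM in vorinostat tumours 1, 2 and 3. The treated tumours lay close together, whereas the untreated ones spread widely, and the groups overlapped by 0.14 CPM. The log2 fold change was -0.58 (SE 0.22, edgeR adjusted p = 0.743). Leaving out untreated tumour 3 gave -0.33, and leaving out vorinostat tumour 3 as well gave -0.28. Dnmt3a reads per Dnmt1 read, a ratio that needs no scaling between libraries, were 1.60, 1.35 and 2.10 in untreated and 1.30, 1.02 and 1.13 in treated tumours. These values did not overlap, but the ratio was chosen after the levels had been seen and is given as a description only. It takes no account of transcript length, which ran from 2248 to 4860 bases for Dnmt3a and from 5344 to 5414 bases for Dnmt1. Per kilobase of effective length, Dnmt3a stood at 30.4, 14.3 and 61.7 CPM in untreated and 16.1, 12.4 and 20.5 CPM in treated tumours, which overlapped.

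The summed level of 7 leukocyte markers (Ptprc, Cd52, Coro1a, Laptm5, Lcp1, Cd53 and Cytip) ran in the same order as Dnmt3a among the untreated tumours, at 112, 58.2 and 180 CPM. In treated tumours it was 92.6, 83.5 and 76.7 CPM, in another order than Dnmt3a. All 7 markers were detected in every tumour, with log2 fold changes below 0 for 7 of 7 and a median of -0.55, and 0 of 7 passed the edgeR threshold. The summed macrophage markers ran alike among the untreated tumours, at 89.8, 53.4 and 150 CPM, against 102, 113 and 87.1 CPM in treated ones. T cell markers summed to between 5.91 and 11.8 CPM and endothelial markers to between 22.3 and 36.7 CPM. Of the 7 fibroblast markers, 5 had log2 fold changes below 0 and 2 above, with a median of -0.86, further from 0 than that of the leukocyte markers. Col3a1, a fibrillar collagen, stood at 5.38, 1.34 and 12.8 CPM in untreated and 1.07, 1.52 and 1.17 CPM in treated tumours (log2 fold change -2.34). Centred on the 6 tumours, the fibroblast median was 0.62, -0.15 and 0.75 against -0.47, -0.22 and -0.07 on the log2 scale, highest in untreated tumour 3 as Dnmt3a was. The summed fibroblast level, between 53.6 and 71.6 CPM, was mostly that of Fbln1, which had a log2 fold change of 0.01. No marker passed the edgeR threshold in any of these lists. The order of Dnmt3a among the untreated tumours was not particular to it, since Dnmt1, Tet1, Tet2, Tet3 and Mbd2 shared it. The share of mitochondrial ribosomal RNA, at 25.3%, 13.3% and 55.9% in untreated tumours 1, 2 and 3, ran alike. The part of leukocytes, fibroblasts and other host cells in the Dnmt3a values was not tested.

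Dnmt3b (ENSMUSG00000027478, chromosome 2 from 153649450 to 153687730, plus strand), the other de novo methyltransferase, was the scarcest of the 8. It had 85, 30 and 28 reads in untreated and 55, 53 and 46 reads in treated tumours, or 3.24, 1.67 and 2.66 against 2.18, 2.44 and 4.13 CPM. The groups overlapped in part, with vorinostat tumour 3 above all untreated tumours and untreated tumour 2 below all treated ones, and the log2 fold change of 0.18 had an SE of 0.41 (edgeR adjusted p = 0.942). Dnmt3l, a relative without catalytic activity that stimulates both de novo enzymes, had at most 9 reads in any library and was not tested.

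Dnmt1 (ENSMUSG00000004099, chromosome 9 from 20907209 to 20959888, minus strand) showed the least variation of the 8 in TMM-scaled CPM. This did not hold for the deposited TPM, which is not TMM-scaled. There Dnmt1 ran from 2.63 to 10.3, a wider relative span than that of Dnmt3a, from 9.91 to 16.4. The level of Dnmt1 was 52.9, 48.5 and 59.2 CPM in untreated and 50.3, 56.2 and 53.8 CPM in treated tumours. The highest tumour was 1.22-fold above the lowest, and only 3.15% of all genes tested had a smaller SD of log2 CPM over the 6 tumours. The group means were 53.5 ± 5.36 and 53.4 ± 2.98 CPM (SD, n = 3 each), and the fold change was 0.999 with an SE of 0.15 on the log2 scale (edgeR adjusted p = 0.999).

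Uhrf1 (ENSMUSG00000001228, chromosome 17 from 56303321 to 56323486, plus strand) behaved differently from its partner. It stood at 49.5, 59.05 and 26.9 CPM in untreated and 57.9, 64.2 and 50.05 CPM in treated tumours. Untreated tumour 3 was far below the other 5, which lay within 49.5 to 64.2 CPM. The log2 fold change was 0.34 (SE 0.25, edgeR adjusted p = 0.779), and leaving out untreated tumour 3 gave 0.06. Uhrf1 reads per Dnmt1 read were 0.935, 1.22 and 0.455 in untreated and 1.15, 1.14 and 0.93 in treated tumours, so the partners were out of step in untreated tumour 3.

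Dnmt1 and Uhrf1 are both known to be transcribed with the cell cycle through E2F factors. The RefSeq promoter windows (GRCm38.p6, 300 bases, from 250 before to 50 after a start site) were therefore searched on both strands for the E2F-type motifs TTTCCCGC, TTTGCCGC, TTTCGCGC and TTTGGCGC. Windows were at hand for 7 of the 8 genes, 12 in all. A match lay in 2 of the 12, being 1 of 3 windows of Dnmt1 and 1 of 2 of Uhrf1, against 2.26% of the 32851 windows of the table. By gene that is 2 of 7 against 2.60%. The stretches below are shown because these partners share TTTCGCGC while their RNA levels diverged. Capitals mark the motif, which in Dnmt1 lies on the strand opposite to the gene (GCGCGAAA) and in Uhrf1 on the strand of the gene.
Dnmt1, chr9:20952824-20952853, minus strand, 219 bases before the start of its window's transcript: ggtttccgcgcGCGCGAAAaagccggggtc
Uhrf1, chr17:56304117-56304146, plus strand, 185 bases before the start of its window's transcript: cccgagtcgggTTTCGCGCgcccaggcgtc
The Dnmt1 stretch overlaps an annotated untranslated part of a Dnmt1 exon, and the Uhrf1 stretch overlaps no annotated exon. The same Dnmt1 window held a second match, TTTGGCGC, downstream of its start. A match is a description of these letters and not evidence of binding. Both windows with a match held 33 CpG sites, where the median of all windows was 7. Windows without a match held as many as 57 (Tet2) and 47 (Dnmt3a). Each motif itself contains a CpG, and the 2.26% and 2.60% are not matched for CpG content. They are therefore not a like background for the matches of these genes.

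As a comparison, 20 S phase genes were listed, among them the Mcm helicase subunits and the nucleotide enzymes Rrm1 and Tyms. Like Uhrf1, 11 of the 20 were lowest in untreated tumour 3, which was the lowest tumour for 26.7% of all genes tested. Chaf1a, a subunit of a chromatin assembly factor, was highest there, as were 21.7% of all genes tested. Centred on the mean of the 6 tumours, the list's median log2 level was -0.05, 0.14 and -0.45 in untreated and 0.17, 0.25 and -0.11 in treated tumours. Uhrf1 on the same scale was 0.00, 0.26 and -0.87 against 0.23, 0.38 and 0.02. Dnmt1 was -0.01, -0.14 and 0.15 against -0.09, 0.07 and 0.01, highest where Uhrf1 was lowest. The root mean square difference from the S phase median over the 6 tumours was 0.20 for Uhrf1 and 0.30 for Dnmt1, and between 0.39 and 0.60 for the other members. The median itself varied little, so this difference is small for a nearly flat gene as well. It therefore does not tell which members followed the list. In untreated tumour 3 Dnmt1 was at 0.15 and the list at -0.45. None of the 20 passed the edgeR threshold. Log2 fold changes were above 0 for 16 and below 0 for 4, where 45.9% of all genes tested were below 0. The median was 0.17 beside 0.03 for all genes. That median was 0.06 without untreated tumour 3, 0.10 without vorinostat tumour 2, and 0.31 without untreated tumour 2 or vorinostat tumour 3. The smallest p belonged to Ccne2, which encodes cyclin E2 (log2 fold change 0.52, SE 0.22), and Mcm6 (0.43, SE 0.20), each with an edgeR adjusted p of 0.743. The proliferation marker Mki67 did not follow the list, at 160, 122 and 110 CPM in untreated and 103, 141 and 148 CPM in treated tumours.

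**Figure D2:**
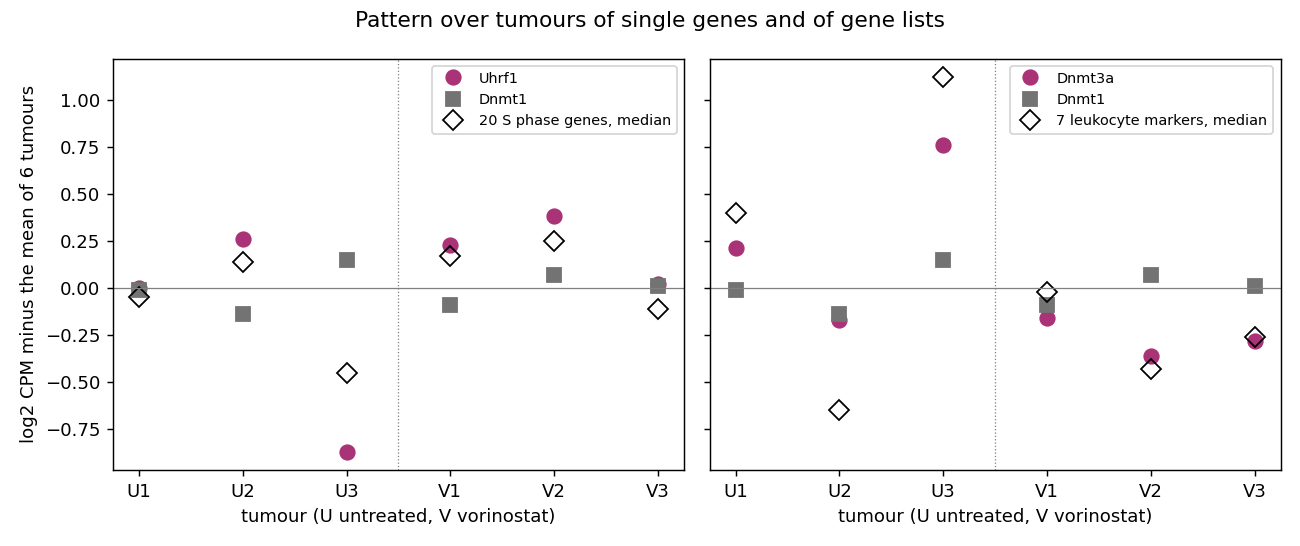
Log2 CPM minus the mean of the 6 tumours in untreated tumours U1 to U3 and vorinostat tumours V1 to V3, for single genes (filled) and for the median of a gene list (open diamonds). Left, Uhrf1 and the S phase median are both lowest in U3, at -0.87 and -0.45, while Dnmt1 stays within -0.14 to 0.15. Right, Dnmt3a and the leukocyte median are both highest in U3, at 0.76 and 1.12, and so is Dnmt1, at 0.15. Tet1, Tet2, Tet3 and Mbd2 and the macrophage and fibroblast medians, not drawn here, are highest in U3 as well.

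Among the erasers, Tet3 (ENSMUSG00000034832, chromosome 6 from 83362373 to 83459084, minus strand) had the most reads. It stood at 52.4, 41.3 and 62.8 CPM in untreated and 41.5, 39.98 and 46.1 CPM in treated tumours. The groups overlapped, and the log2 difference was -0.29 ± 0.17 (SE), with an adjusted p of 0.752 in edgeR. Tet1 (ENSMUSG00000047146, chromosome 10 from 62804570 to 62908996, minus strand), best known from embryonic stem cells, stood at 11.6, 9.53 and 13.3 CPM against 8.27, 7.95 and 10.2 CPM. Vorinostat tumour 3 reached into the untreated range, and the log2 fold change of -0.38 had an SE of 0.18 (edgeR adjusted p = 0.743). Tet2 (ENSMUSG00000040943, chromosome 3 from 133463679 to 133545139, minus strand), often mutated in blood cancers, stood at 21.6, 15.2 and 24.5 CPM against 21.2, 18.7 and 20.6 CPM. The treated tumours lay inside the untreated range, and the log2 difference was -0.01 ± 0.18 (SE), with an adjusted p of 0.99 in edgeR.

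Within a tumour, reads of the Tet genes can be set against each other without scaling between libraries. Such ratios take no account of transcript length. Mean length varied between tumours, from 3297 to 9448 bases for Tet1 and from 4349 to 6522 bases for Tet2. Tet3 reads per Tet2 read were 2.43, 2.72 and 2.56 in untreated and 1.96, 2.14 and 2.23 in treated tumours. Tet1 reads per Tet2 read were 0.537, 0.629 and 0.543 against 0.391, 0.425 and 0.496. In both ratios of reads every treated tumour lay below every untreated one. With effective length as an offset in edgeR, the log2 fold change was 0.15 for Tet1 and -0.2 for Tet2. The ratios of reads therefore do not show a shift between Tet RNA levels per length. These ratios were chosen after the levels were seen, among 5 computed, of which 3 were apart, and they were not tested. The share of ratios that are apart over other pairs of genes was not computed, so 3 of 5 has no background to be read against.

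The reader Mbd2 (ENSMUSG00000024513, chromosome 18 from 70568189 to 70626131, plus strand) stood at 21.8, 20.2 and 28.3 CPM in untreated and 22.7, 20.03 and 23.1 CPM in treated tumours. Apart from untreated tumour 3, all values lay within 20.03 to 23.1 CPM. The log2 fold change was -0.09 (SE 0.16, edgeR adjusted p = 0.918).

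Untreated tumour 3 had the highest CPM of 6 of the 8 genes, the exceptions being Dnmt3b and Uhrf1, and the lowest of 1, Uhrf1. Over all genes tested it was the highest tumour for 21.7% and the lowest for 26.7%. These ranks rest on TMM scaling, with a factor of 0.364 for untreated tumour 3 against 0.832 to 1.65 in the other libraries. Relative to total reads, its CPM values were therefore raised the most. The part of this scaling and of its 55.9% share of mitochondrial ribosomal RNA in these values was not tested. Without untreated tumour 3, log2 fold changes of Mbd2, Tet2 and Dnmt1 were 0.03, 0.10 and 0.05, and those of Tet1 and Tet3 stayed below 0.

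**Figure D3:**
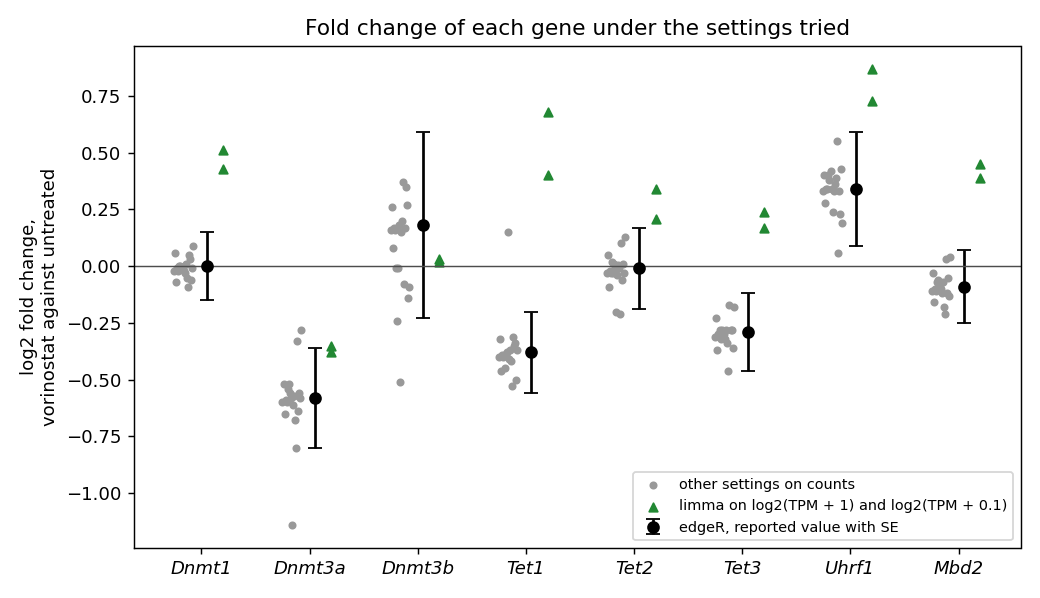
Log2 fold change of vorinostat against untreated tumours for each gene: black points with SE from edgeR, grey points from other settings on counts, and green triangles from limma on log2(TPM + 1) and log2(TPM + 0.1). Dnmt3a lies below 0 (from -1.14 to -0.28) and Uhrf1 above 0 (from 0.06 to 0.87) under all 21 other settings, none of which passed the threshold.

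To compare levels between genes, CPM was divided by the effective transcript length in kilobases that the files give. The geometric mean over the 6 tumours was 21.9 CPM per kilobase for Dnmt3a, 17.2 for Uhrf1, 13.5 for Mbd2 and 10.4 for Dnmt1. The Tet genes followed in the order Tet3 at 5.36, Tet2 at 3.90 and Tet1 at 1.86, and Dnmt3b was lowest at 1.26 CPM per kilobase. Neighbours in this order were compared within each tumour by an exact sign-flip permutation test, two-sided and adjusted over the 7 pairs. Mbd2 lay above Dnmt1, Dnmt1 above Tet3, Tet3 above Tet2 and Tet2 above Tet1 in 6 of 6 tumours, which gave the smallest p that 6 tumours allow (exact p = 0.0312, adjusted 0.0547). The steps were 1.29-fold, 1.94-fold, 1.37-fold and 2.10-fold. Tet1 lay above Dnmt3b in 5 of 6 tumours (1.47-fold, exact p = 0.0625, adjusted 0.0875). Dnmt3a and Uhrf1 (higher in 3 of 6, exact p = 0.781) and Uhrf1 and Mbd2 (5 of 6, exact p = 0.281) did not differ beyond their spread. No pair passed 0.05 after adjustment, whereas 5 of 7 did with the plain in place of the effective length. The Dnmt3a level per kilobase ran from 12.4 in vorinostat tumour 2 to 61.7 in untreated tumour 3, a wider span than its CPM.

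**Figure D4:**
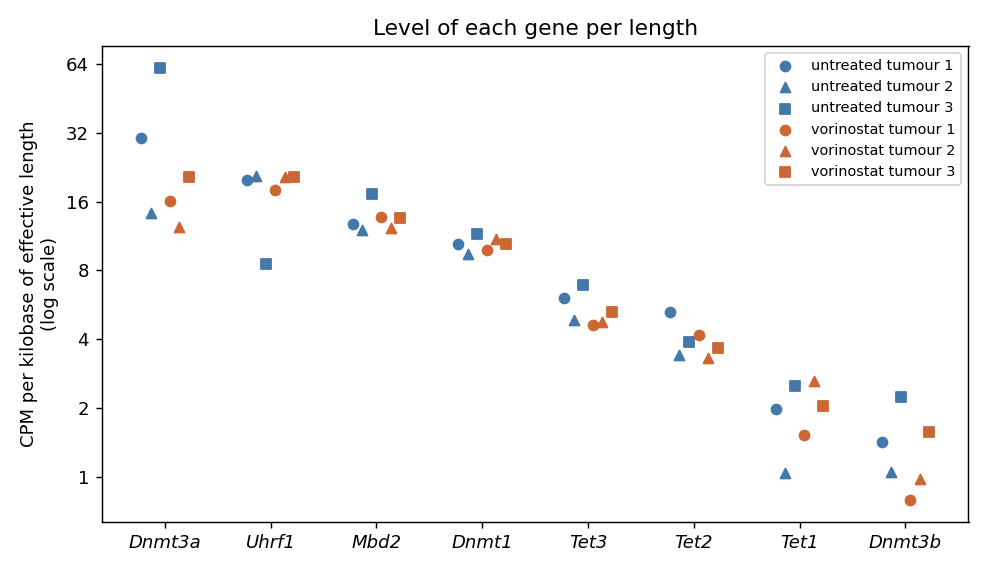
CPM per kilobase of effective transcript length on a log scale for the 8 genes in the 6 tumours, ordered by geometric mean. Dnmt3a, Uhrf1, Mbd2 and Dnmt1 lie at 8.49 or above in every tumour, and the Tet genes and Dnmt3b at 6.90 or below.

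That wider span comes from the transcript length, a second readout of the files. The length of a gene is the mean of its transcripts weighted by their estimated abundance, so it moves only when the mix of transcripts moves. For Dnmt3a, whose 18 annotated transcripts span 369 to 9685 bases, it was 3040, 4858 and 2248 bases in untreated and 4330, 4860 and 3209 bases in treated tumours. It was shortest in untreated tumour 3, where the level was highest. With effective length as an offset in edgeR the log2 fold change of Dnmt3a was -1.14, and its adjusted p was 0.75.

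Dnmt3b was the only one of the 8 whose lengths were apart between the groups, at 2520, 1866 and 1420 bases in untreated and 3003, 2752 and 2884 bases in treated tumours (exact permutation p = 0.1, two-sided, the smallest that groups of 3 allow; adjusted 0.8). Of the 9992 genes with a varying length, 9.38% had lengths that were apart. Among the 8 genes that number was 3 without untreated tumour 2 or untreated tumour 3, and 2 without vorinostat tumour 1 or vorinostat tumour 3. The 9.38% holds for all 6 tumours. With 1 tumour left out groups are more easily apart, and the share over all genes was not computed there. All 10 annotated coding transcripts of Dnmt3b are 3630 to 4320 bases long, and the other 2, both with a retained intron, are 600 and 756 bases. All 6 means lay below the shortest coding transcript, so the short transcripts made up part of the estimated molecules in every tumour. By these lengths their share was at least 36.6%, 58.2% and 72.9% in untreated and 20.7%, 29.0% and 24.6% in treated tumours, from 28 to 85 reads per library.

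Tet1 was also estimated as a mix, of 2 transcripts of 13986 and 14369 bases and 8 of at most 1505 bases. Its mean length was 6108, 9448 and 5549 bases in untreated and 5691, 3297 and 5301 bases in treated tumours, and the groups overlapped (exact permutation p = 0.2, adjusted 0.8). The short transcripts made up between 33.3% and 38.3% of the molecules in untreated tumour 2, the lowest share, and between 78.5% and 86.1% in vorinostat tumour 2, the highest.

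In contrast, Dnmt1 stayed at 5344 to 5414 bases in all tumours, within the range of its coding transcripts, 5248 to 5870 bases. Mbd2 stayed at 1880 to 1953 bases, at or near its longest transcript of 1953 bases, and Tet3 at 8679 to 9335 bases. Uhrf1 lay between 2704 and 3474 bases and Tet2 between 4349 and 6522 bases, with overlapping groups. Over the genes with a varying length, the median log2 length relative to the mean of the 6 tumours ran only from 0.00 to 0.014, so no library was shifted as a whole.

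**Figure D5:**
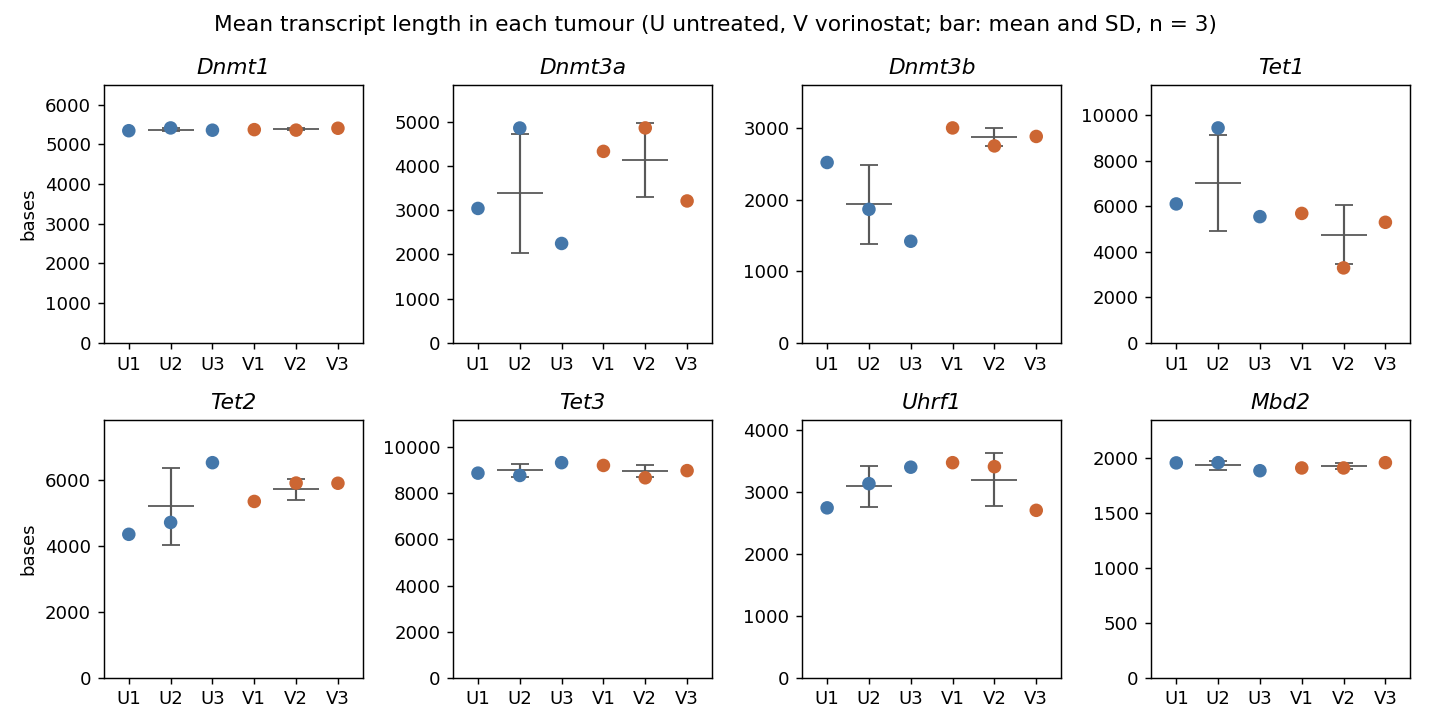
Mean transcript length in bases, weighted by estimated abundance, of each gene in untreated tumours U1 to U3 and vorinostat tumours V1 to V3, with the mean and SD of each group of 3. Dnmt1, Tet3 and Mbd2 are nearly level, Dnmt3a, Dnmt3b and Tet1 vary more than 2-fold between tumours, and Dnmt3b is the only gene whose groups are apart.

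Reads of overlapping genes were few. Dnmt3aos, antisense to Dnmt3a, had 4, 1 and 1 reads in untreated and 3, 1 and 12 in treated tumours, against 676 reads or more of Dnmt3a. Dnmt3bos, antisense to Dnmt3b, had 0, 8 and 0 reads against 1, 0 and 7, which is not small beside the reads of Dnmt3b. B230319C09Rik, antisense to Tet3, had at most 16 reads.

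The partners of these enzymes were examined as lists. The list of 19 partners of the methyltransferases includes the chromatin remodeller Hells, genes for the synthesis of S-adenosylmethionine and the deubiquitinase Usp7. Of these 19, 16 were tested and 0 passed the edgeR threshold. Their log2 fold changes were above 0 for 8 and below 0 for 8, with a median of -0.01. The smallest p belonged to Cdca7l at 17.3 ± 2.31 against 20.9 ± 1.44 CPM and to Hells at 19.4 ± 2.07 against 16 ± 3.38 CPM, treated against untreated (SD, n = 3 each). Uhrf2, the paralogue of Uhrf1, stood at 15.7 ± 1.09 against 15.5 ± 2.00 CPM.

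Of 19 readers of methylated DNA and subunits of the NuRD complex, all were tested, 0 passed the threshold, 11 were above 0 and 8 below, and the median was 0.02. Chd3, a helicase of NuRD, had 28.9 ± 2.99 against 37.9 ± 8.90 CPM, and the log2 difference was -0.39 ± 0.18 (SE), with an adjusted p of 0.743 in edgeR. Gatad2a, a subunit that joins Mbd2 or Mbd3 to the helicase, stood at 40.2 ± 1.89 against 34.1 ± 3.27 CPM, and its groups were apart, as were those of 6.53% of all genes in that direction.

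Of 18 genes that act with or after the Tet enzymes, 0 passed the threshold, 8 were above 0 and 10 below, and the median was -0.03. The smallest p belonged to Tdg, the glycosylase that excises oxidised methylcytosine, at 27.0, 32.6 and 28.8 CPM in treated against 37.7, 37.0 and 44.0 CPM in untreated tumours. The highest treated tumour lay below the lowest untreated one, as for 5.53% of all genes. Its log2 fold change was -0.42 ± 0.15 (SE; edgeR adjusted p = 0.743). Xrcc1, a scaffold of the repair that follows, stood at 17.7 ± 2.36 against 21.8 ± 6.07 CPM.

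Methylation itself was not measured, and the RNA of other genes does not measure it. As a description of RNA only, 16 germline genes that are silenced by promoter methylation in somatic cells were summed, among them Dazl, Ddx4 and Mael. None passed the filter on low counts. Together they had 24, 46 and 11 reads in untreated and 45, 35 and 29 reads in treated tumours, or 0.916, 2.56 and 1.05 CPM against 1.78, 1.61 and 2.60 CPM, and 2 of the 16 had no read at all. The groups overlapped, and a difference was not detectable at this depth. A count of 3 reads, the limit set by an absence of reads, corresponds to between 0.114 and 0.285 CPM, which covers counting error only.

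The genes with the nearest pattern over the 6 tumours were sought among 7925 protein-coding genes with a mean of 5 CPM or more, by the root mean square difference of centred log2 CPM. For Dnmt3a they were Impad1 (0.051) and Acsl5 (0.055), for Uhrf1 Eif4a3 (0.073) and Abtb2 (0.079), and for Dnmt1 Manba (0.036) and Pitpna (0.042). For Tet1 they were Sox11 (0.049) and Col4a2 (0.060), for Tet2 Gm2a (0.037) and Jkamp (0.037), and for Tet3 Hook1 (0.033) and Antxr2 (0.035). Mbd2 lay nearest to Ehbp1l1 (0.044) and Ybx1 (0.048). Dnmt3b, with few reads, had the least close neighbours, Nhlrc3 (0.104) and Ift81 (0.105). With 6 tumours such closeness is a description only. Impad1, for example, stood at 87.5, 68.8 and 132 CPM in untreated and 66.2, 56.1 and 58.1 CPM in treated tumours, and its groups were apart.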

How the data were processed

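Each library was deposited by the authors as a table of 44679 Ensembl genes with an estimated count, a TPM value and the mean and effective transcript length in bases. Libraries were stranded, per the labels' protocols. Per the submitters' processing notes, FastQC, Trim Galore and Salmon were used with GRCm38; their versions and annotation were not given in the sources used here. Names came from GENCODE M21 (44118 genes matched); 93.7% of genes with 1 transcript had its length there within 1 base. Rounded estimated counts were tested with edgeR 4.0.16 in R 4.3.3 (TMM, filterByExpr, quasi-likelihood, two-sided, Benjamini-Hochberg, threshold 0.05); all 8 members passed the filter. DESeq2 1.42.0 and limma 3.58.1 served as alternatives, the latter also on the deposited TPM. On simulated data with 100 genes changed per fold, the edgeR test recovered 48% of 2-fold and 83% of 4-fold changes, with 10 false calls. A 2-fold change in a single gene can therefore go uncalled. Replicate numbers follow sample order and pair nothing. The members and lists were chosen with earlier results of these data known. Named were the 8 members, the 2 smallest p of each list, the 2 nearest patterns per member, Mki67 and cell markers; Uhrf2, Dnmt3l, Rrm1, Tyms, Chaf1a, Usp7, Col3a1, Fbln1 and the overlapping genes were added after values were seen. Short shares split the M21 transcripts at 50% of the longest length, also chosen after values were seen.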

Additional observations from a re-analysis of the deposited data

How the results depend on the processing

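Of the 8 genes 0 were called under all 21 other settings, each library left out included, and the smallest adjusted p of any of them was 0.0905, for Dnmt3a without untreated tumour 2. Dnmt3a and Uhrf1 kept their direction throughout. The count of all genes called was 156 with no filter, 11 in DESeq2, 6 in limma-voom with sample quality weights, 39 on log2(TPM + 1), 52 on log2(TPM + 0.1), and from 0 to 121 with each library left out, 121 without untreated tumour 2 and 1 without untreated tumour 3. Log2 fold changes of the other 6 genes crossed 0 under some settings; except where the alternative itself removes libraries, the cause was not tested. Dnmt1, Tet1, Tet2, Tet3 and Mbd2 were at 0.43, 0.40, 0.21, 0.17 and 0.39 on log2(TPM + 1), beside 0.26 for the median gene, and at 0.51, 0.68, 0.34, 0.24 and 0.45 on log2(TPM + 0.1), beside 0.51. With an effective length offset Dnmt3b was at -0.51 and Tet1 at 0.15. With upper-quartile scaling Dnmt1 was at 0.06 and Tet2 at 0.05, and with protein-coding genes alone at 0.01 and 0.003. In limma-voom Dnmt1, Dnmt3b and Tet2 were at 0.002, -0.01 and 0.02, with quality weights Dnmt3b at -0.24, and with tumours that share a G number treated as related Dnmt3b at -0.01 and Tet2 at 0.01. With each library left out Dnmt3b ran from -0.14 to 0.37, Tet2 from -0.21 to 0.10 and Mbd2 from -0.21 to 0.03. Dnmt3b was at -0.08 without untreated tumour 2 and at -0.14 without vorinostat tumour 3. Dnmt1, Tet2 and Mbd2 were at 0.05, 0.10 and 0.03 without untreated tumour 3, Dnmt1 at 0.03 without vorinostat tumour 1 and Tet2 at 0.01 without vorinostat tumour 2. Without untreated tumour 3 and vorinostat tumour 3, Dnmt1, Dnmt3b, Tet2 and Mbd2 were at 0.09, -0.09, 0.13 and 0.04. In the order of levels, 5 pairs passed with the plain length in place of the effective length, 0 with TPM and 0 with each library left out, where 5 tumours cannot give an exact permutation p below 0.0625. Dnmt3a lay below Uhrf1 by a log2 value of -0.16 without untreated tumour 3 and -0.29 in treated tumours alone, and with each library left out the difference ran from -0.16 to 0.56. Members with lengths that were apart numbered from 1 to 3 with each library left out, where the share over all genes was not computed. Of the 16 nearest genes 16 remained with RLE size factors and 14 with a mean of 1 CPM or more. No paired analysis was possible because the replicate numbers follow sample order and the G numbers in the titles never occur in both groups. Depth limits Dnmt3b most, with 28 to 85 reads per library.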
